A study of Mus musculus with 12 samples.

Results

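The serpins are a family of proteins that mostly inhibit serine proteases. All genes were taken whose symbol, in probe sets naming 1 gene, is Serpin followed by a clade letter from a to i and a digit. This rule found 48 of the 19938 genes measured, each with 1 probe set. Of these, 24 belonged to clade B, the largely intracellular serpins, and 15 to clade A, the branch that holds most of the secreted liver serpins. The other 9 were spread over clades C to I. Serpin genes lie in clusters, and 14 members were on chromosome 12, 13 on chromosome 13 and 12 on chromosome 1.

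Liver RNA of male mice was hybridised to 12 whole-transcript arrays from Affymetrix. Of the 3 groups of 4 arrays, WT untreated livers came from wild-type C57Bl6/J mice, and WT LPS livers from such mice given lipopolysaccharide (LPS), a component of bacterial outer membranes, at 1 µg/kg. S534A LPS livers came from mice given the same dose and homozygous for a knock-in that puts alanine in place of serine at a site of the p65 subunit of NF-kB. The allele comes from gene targeting in the PTL1 line of embryonic stem cells with later backcrosses to C57Bl6/J, and it is present in every cell of the animal. Without untreated livers of that genotype, which were not analysed here, a difference that preceded LPS and one within the response cannot be told apart. For the age of the mice and the time from LPS to sampling, the sources used here give no value. Titles of the untreated arrays follow a scheme of their own, and if that marks a separate run, the run and LPS cannot be told apart.

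A typical serpin presents an exposed loop as bait. When a protease cuts the loop, it is trapped in a covalent complex and dragged across the serpin, which inactivates both molecules. Hepatocytes secrete much of the serpin content of blood plasma, including inhibitors of neutrophil elastase, thrombin, plasmin and complement proteases, and several liver serpins are acute-phase proteins whose output shifts during infection. Some members no longer inhibit proteases and carry hormones instead, and clade B members mostly guard cells against their own granule and lysosomal proteases.

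Sequences upstream of the start site are shown for 2 pairs of chromosome 12 gene copies on which the results turn. One pair holds risers after LPS, and the members of the other pair gave different values. Serpina3n, at chr12:104406458-104406757 on the plus strand, and Serpina3b, at chr12:104127746-104128045 on the plus strand, are copies of the antichymotrypsin gene, and both rose after LPS. Serpina1d, at chr12:103773584-103773883 on the minus strand, and Serpina1c, at chr12:103904901-103905200 on the minus strand, are copies of the alpha-1 antitrypsin gene, of which the first fell and the second did not pass the test. Each window runs from 250 bases before to 50 after the start site, 5′ to 3′, from RefSeq on GRCm38.p6. Capitals mark the longest run of bases that the pair shares.
Serpina3n: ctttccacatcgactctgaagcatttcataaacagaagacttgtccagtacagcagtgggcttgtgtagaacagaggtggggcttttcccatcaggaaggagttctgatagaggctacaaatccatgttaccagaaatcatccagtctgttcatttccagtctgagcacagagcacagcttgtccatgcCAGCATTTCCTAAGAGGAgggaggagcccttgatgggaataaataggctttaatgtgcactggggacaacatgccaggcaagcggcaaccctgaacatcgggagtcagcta
Serpina3b: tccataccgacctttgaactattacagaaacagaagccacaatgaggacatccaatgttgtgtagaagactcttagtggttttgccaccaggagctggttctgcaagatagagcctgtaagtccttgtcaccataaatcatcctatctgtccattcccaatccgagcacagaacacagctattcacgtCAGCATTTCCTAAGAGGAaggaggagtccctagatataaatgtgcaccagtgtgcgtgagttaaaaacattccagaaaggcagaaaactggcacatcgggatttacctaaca
Serpina1d: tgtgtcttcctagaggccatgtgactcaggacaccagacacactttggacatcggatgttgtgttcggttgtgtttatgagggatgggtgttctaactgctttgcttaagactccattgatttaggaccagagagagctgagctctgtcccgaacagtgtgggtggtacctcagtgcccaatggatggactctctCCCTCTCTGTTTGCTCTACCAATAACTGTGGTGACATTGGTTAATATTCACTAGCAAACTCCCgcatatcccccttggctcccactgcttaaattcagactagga
Serpina1c: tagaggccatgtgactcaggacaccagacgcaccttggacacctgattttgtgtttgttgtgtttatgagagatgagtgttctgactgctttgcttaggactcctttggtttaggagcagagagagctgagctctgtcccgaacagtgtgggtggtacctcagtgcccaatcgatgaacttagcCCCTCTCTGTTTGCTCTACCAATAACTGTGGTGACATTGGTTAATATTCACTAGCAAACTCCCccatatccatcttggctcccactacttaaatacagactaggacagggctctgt

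The Serpina3n and Serpina3b windows were 68.9% identical, and their shared run of 18 bases began 61 bases before the start site in Serpina3n and 62 before it in Serpina3b. Serpina3a, a further copy, was 46.3% identical to Serpina3n. The Serpina1d and Serpina1c windows were 85.2% identical, with a shared run of 63 bases. RefSeq start sites gave windows for 41 of the 48 members. In these, 3 motifs of factors that act in inflammation were searched on both strands. The spaced STAT motif TTCNNNGAA was in 7 of the 49 windows of these genes, which belong to 5 genes, and in 8.3% of all windows of that length. The core of the interferon-stimulated response element was in 3 of the 49 windows against 3.44% of all, and the NF-kB consensus in 1, that of Serpinh1, against 4.51% of all. The 3 motifs can overlap each other, and none of them was found in the windows of the rising members Serpina3n, Serpina3b, Serpina5 and Serpina7. Serpina10, the remaining riser, had no window. Among the members that fell, a Serpinb6a window held 2 STAT matches and 1 match to the interferon core. The windows of Serpina1d, Serpinc1, Serpind1 and Serpinf1 held none. No match says only that these letters are not in the window.

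All values are log2 levels of 1 probe set per gene, and they rank arrays within a gene rather than genes against each other. Arrays of a group correlated at 0.983 to 0.996 over all probe sets. The mean of 8 hepatocyte markers was 13.56 to 13.63 on every array, so the defining messages of the labelled tissue were present. Messages of the exocrine pancreas stood out on 3 arrays, with a mean over 14 markers of 7.94 on WT LPS replicate 2, 6.52 on WT LPS replicate 3 and 8.95 on S534A LPS replicate 3, against 5.73 to 6.07 in untreated livers. Serpini2, a serpin of the exocrine pancreas, read 4.38, 4.42 and 4.45 on those arrays, within its range of 4.38 to 4.48 in untreated livers. Untreated replicates 2 and 4 differed from 1 and 3 in clock genes: Dbp, a clock output gene, read 8.14, 11.19, 7.59 and 11.39 in the order of the replicates. In bulk tissue, fewer cells of a type and less RNA per cell cannot be told apart.

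LPS in wild-type livers moved 10 of the 48 serpins, 5 up and 5 down. The risers were Serpina7, Serpina10, Serpina3n, Serpina3b and Serpina5. Those that fell were Serpinb6a, Serpina1d, Serpind1, Serpinc1 and Serpinf1. Calls are at an adjusted p under 0.05 (limma, Benjamini-Hochberg over all 19938 genes), and differences are log2 ± SE. The 5 higher members were 10.4% of the family, against 9.34% of all genes called higher, and the 5 lower members were 10.4%, against 15.6% of all genes called lower. Both shares are near the background of a response in which 25% of all genes were called. The arrays of the 2 groups did not overlap for 6 higher members, 12.5% against 9.78% of all genes, and for 4 lower members, 8.33% against 14.9%. The median difference was 0.00 over the 48 members and 0.02 over all genes, and the median size without sign was 0.10 against 0.14.

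**Figure D1:**
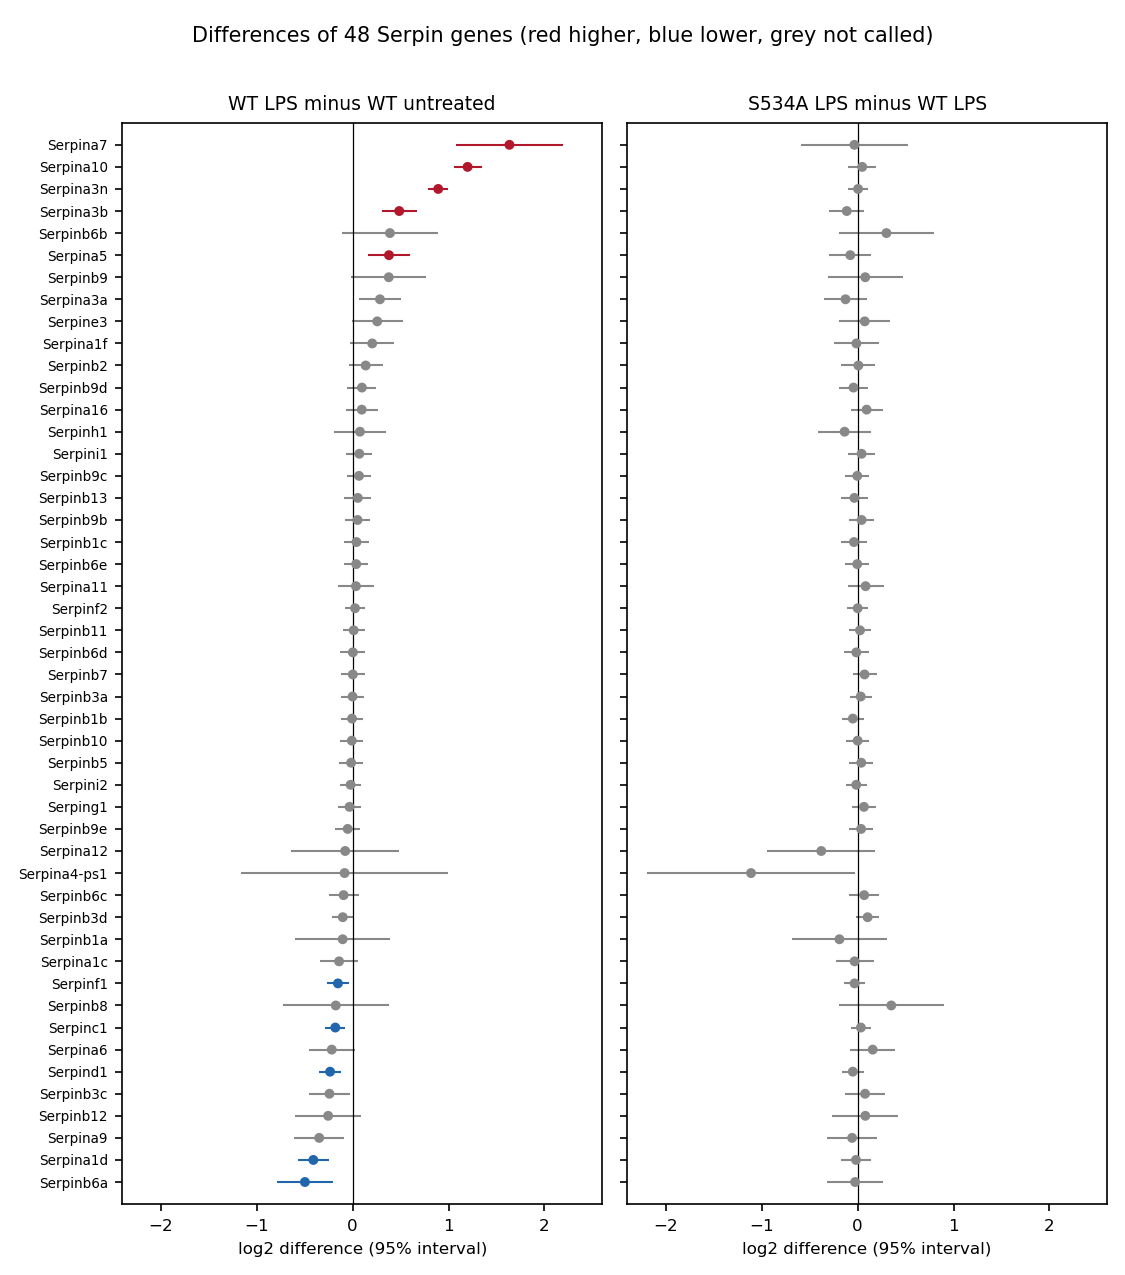
The log2 difference (horizontal axis, point) and its 95% interval (line) for each of the 48 serpins, for WT LPS minus WT untreated on the left and S534A LPS minus WT LPS on the right, with called members red (higher) or blue (lower) and others grey. Serpina7, Serpina10 and Serpina3n lie far to the right of 0 on the left side, and no member is coloured on the right.

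Among the 6 antitrypsin and antichymotrypsin type genes, 2 rose and 1 fell, and their median difference was 0.24. Serpina3n, whose protein is a secreted acute-phase inhibitor, read 12.75, 12.74, 12.70 and 12.78 in untreated livers, 13.65, 13.57, 13.67 and 13.65 in WT LPS livers and 13.67, 13.63, 13.66 and 13.61 in S534A LPS livers. Every LPS array lay above every untreated array, and the 2 LPS groups overlapped over a narrow span. The WT difference was 0.89 ± 0.05, or 1.86-fold, with adjusted p = 3.41e-08. Serpina3b, another antichymotrypsin copy, read 5.13, 4.86, 5.18 and 4.98 in untreated, 5.65, 5.60, 5.42 and 5.42 in WT LPS and 5.30, 5.50, 5.42 and 5.43 in S534A LPS livers. Both LPS groups again lay wholly above the untreated arrays, and the WT difference was 0.49 ± 0.09 with adjusted p = 0.001. Serpina3a, a further copy, gave 0.28 with adjusted p = 0.0574. Serpina3b and Serpina3a were dim, with mean levels over the 12 arrays at percentiles 22.8 and 21.9 of all genes. How signal is divided between the probe sets of the antichymotrypsin copies was not tested.

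The alpha-1 antitrypsin copies, whose human counterpart protects lung tissue from neutrophil elastase, did not move as 1 group after LPS. Serpina1d read 13.13, 13.07, 13.08 and 13.33 in untreated, 12.66, 12.64, 12.83 and 12.84 in WT LPS and 12.75, 12.72, 12.80 and 12.64 in S534A LPS livers. No LPS array reached the lowest untreated one. It fell by 0.41 ± 0.07, or 1.33-fold, with adjusted p = 0.00131. Serpina1c read 13.48, 13.46, 13.39 and 13.80 in untreated, 13.39, 13.28, 13.40 and 13.49 in WT LPS and 13.30, 13.42, 13.48 and 13.23 in S534A LPS livers, so that the groups overlapped and the gene was not called. Serpina1f, a related gene with its own probe set, gave 0.20 ± 0.11 in WT LPS livers and was not called (adjusted p = 0.193). The 2 probe sets that name all of Serpina1a to Serpina1e were not called either, at -0.09 ± 0.05 with adjusted p = 0.18 and -0.03 with adjusted p = 0.643. These copies are nearly identical, and how their signal is divided between probe sets was not tested.

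Of the 2 hormone carriers, 1 rose. Serpina7, thyroxine-binding globulin, gave the largest difference among the called members in WT livers. It read 9.13, 9.40, 8.53 and 9.90 in untreated, 11.08, 10.56, 11.15 and 10.71 in WT LPS and 11.27, 11.02, 10.58 and 10.50 in S534A LPS livers. The untreated arrays were widely spread, yet their highest stayed below the lowest LPS array. The rise was 1.63 ± 0.26, or 3.1-fold with a 95% interval of 1.07 to 2.19 on the log2 scale, and adjusted p = 0.000476. Within the untreated group, replicates 2 and 4, those that differed in clock genes, read highest. With these left out the rise was 2.04, and with replicates 1 and 3 left out it was 1.23. It was called under both settings, which were chosen after seeing the data. Serpina6, corticosteroid-binding globulin, read 12.48, 12.84, 12.53 and 13.04 in untreated and 12.50, 12.45, 12.52 and 12.54 in WT LPS livers. Untreated replicates 2 and 4, those that differed in clock genes, were its highest arrays, and the WT difference of -0.22 was not called (adjusted p = 0.176). With untreated replicates 1 and 3 left out, a setting chosen after seeing the data, Serpina6 was called lower.

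Inhibitors of clotting, fibrinolysis and complement went both ways, with 2 of 6 higher and 2 lower. Serpina10, the protein Z-dependent inhibitor of factor X, read 11.03, 10.92, 11.11 and 11.19 in untreated, 12.19, 12.24, 12.23 and 12.38 in WT LPS and 12.34, 12.32, 12.30 and 12.27 in S534A LPS livers. The untreated arrays lay about 1 log2 unit below both LPS groups, which overlapped each other, and the WT rise was 1.20 ± 0.07, or 2.29-fold, with adjusted p = 4.18e-08. Serpina5, the protein C inhibitor, rose by 0.38 ± 0.10 from a mean of 5.29 to 5.67 with adjusted p = 0.0156. It was dim, with a mean level over the 12 arrays at percentile 27.2 of all genes. Its call was lost without WT LPS replicate 4 (adjusted p = 0.0515), without the 3 arrays with pancreas messages (adjusted p = 0.0817) and without untreated replicates 2 and 4, where the difference was 0.24 (adjusted p = 0.162).

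Serpinc1 and Serpind1, which encode heparin-dependent thrombin inhibitors, fell slightly. Serpinc1, antithrombin, read 13.09, 13.02, 13.08 and 13.13 in untreated and 12.91, 12.89, 12.90 and 12.91 in WT LPS livers. The groups did not overlap, and it fell by 0.18 ± 0.05, or 1.13-fold, with adjusted p = 0.0158. That call was lost with quantile normalisation repeated (-0.13, adjusted p = 0.0515), with only the 2 groups compared (adjusted p = 0.0559) and without untreated replicates 1 and 3 (adjusted p = 0.0675). Serpind1, heparin cofactor II, fell by 0.24 ± 0.05, or 1.18-fold, with adjusted p = 0.0064, and its WT LPS arrays lay at 12.60 to 12.71 below untreated arrays at 12.82 to 12.94. Serpinf2, the inhibitor of plasmin, had means of 13.18 in untreated, 13.21 in WT LPS and 13.21 in S534A LPS livers and was not called. Serping1, the inhibitor of complement C1, had means of 12.96, 12.93 and 12.99 and was not called.

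Of the 2 genes for pigment epithelium-derived factor and the collagen chaperone, 1 fell. Serpinf1, which encodes the former, an inhibitor of blood vessel growth, read 12.68, 12.62, 12.65 and 12.71 in untreated and 12.54, 12.48, 12.48 and 12.56 in WT LPS livers. It fell by 0.15 ± 0.05, or 1.11-fold, with adjusted p = 0.0432. That call was lost on leaving out any 1 of the 12 arrays, with adjusted p up to 0.104. Serpinh1, which helps collagen fold in the endoplasmic reticulum, had means of 7.72, 7.80 and 7.67 in untreated, WT LPS and S534A LPS livers. None of the other 5 clade A genes was called in WT livers, and Serpina9 came nearest at -0.35 with adjusted p = 0.0531.

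The 24 clade B genes stayed mostly at the bottom of the array's range, with 17 of them among the 19 members whose mean level was under 5, and 1 of the 24 changed in WT livers. Serpinb6a, an inhibitor of trypsin-like proteases and cathepsin G, read 7.75, 7.68, 7.45 and 7.87 in untreated, 7.58, 6.85, 7.14 and 7.21 in WT LPS and 7.07, 7.14, 7.34 and 7.11 in S534A LPS livers. WT LPS replicate 1 overlapped the untreated arrays, and the S534A LPS arrays did not. It fell by 0.50 ± 0.14, or 1.41-fold, with adjusted p = 0.0169. Serpinb9, the inhibitor of granzyme B, read 7.16, 6.94, 7.17 and 7.48 in untreated and 8.14, 7.14, 7.44 and 7.53 in WT LPS livers, a difference of 0.38 that was not called (adjusted p = 0.155).

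Some clade B genes shared part of an array order in WT LPS livers. How many of all genes share it was not counted. Replicate 1 was the highest of the 4 for Serpinb6a, Serpinb6b, Serpinb9 and Serpinb1a, and replicate 2 was the lowest for the first 3 of these. Serpinb8 read 6.91, 6.70, 6.10 and 6.49, so that replicate 2 was not its lowest. Over all probe sets, WT LPS replicate 2 had the highest median of the 12 arrays, 6.32, and the lowest upper quartile, 8.04. The mean of 8 Kupffer cell markers read 9.29, 8.67, 9.05 and 9.27 on the 4 WT LPS arrays, and that of 5 monocyte markers 6.81, 6.32, 6.56 and 6.61. The part of these cells, or of the shift over the whole array, in the clade B values was not tested. Neutrophil markers moved with LPS as well, at 5.73 to 5.96 over 13 genes in untreated, 7.11 to 7.39 in WT LPS and 7.47 to 7.74 in S534A LPS livers, and their part in the clade B values was not tested either.

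**Figure D2:**
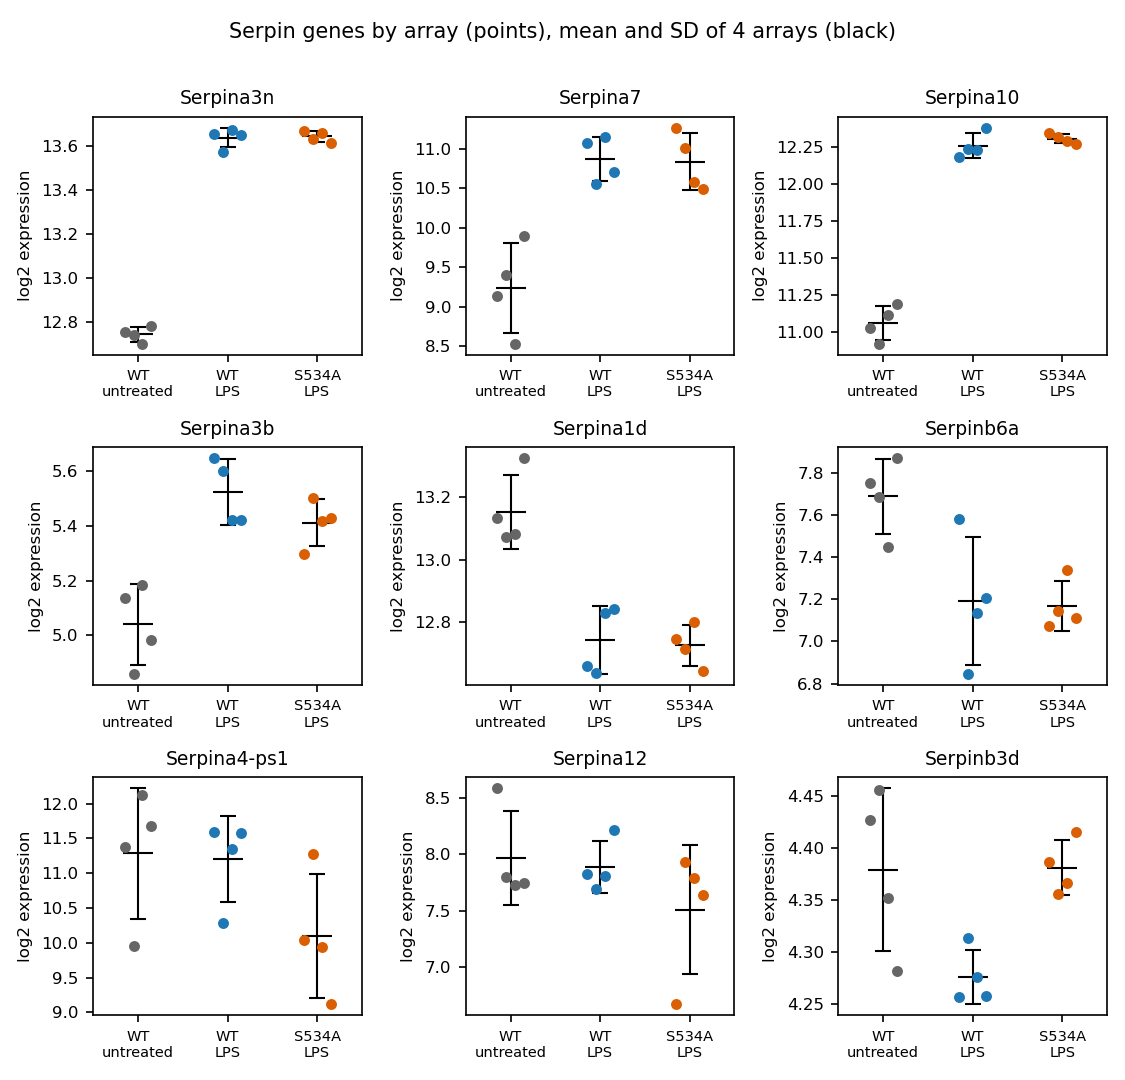
Log2 expression (vertical axis) of 9 serpins on each array (points) by group, with the mean and SD of 4 arrays in black. Serpina3n and Serpina10 form a low untreated band and a high band shared by both LPS groups, while Serpina4-ps1 spreads over several log2 units within a group.

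Calls in WT livers were lost on both sides when the arrays with pancreas messages were left out, with Serpina5 at 0.40 among the risers. Without those 3 arrays, 1 of the 5 lower members was called, Serpina1d, at -0.40 with adjusted p = 0.0157. The values of the other lower members without them were -0.30 for Serpinb6a (adjusted p = 0.172), -0.21 for Serpind1 (adjusted p = 0.0616), -0.17 for Serpinc1 (adjusted p = 0.111) and -0.12 for Serpinf1 (adjusted p = 0.286). Serpinb6a was also lost without untreated replicates 2 and 4 (-0.41, adjusted p = 0.12), and Serpind1 without untreated replicates 1 and 3 (-0.21, adjusted p = 0.0517). Serpina3n, Serpina10, Serpina7 and Serpina1d were called in the same direction under each of the 26 alternatives tried.

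The S534A LPS livers shared the untreated arrays with this comparison, so their values stand beside the WT values and do not repeat them independently. Against untreated livers, 6 members were higher, 12.5% of the family against 11% of all genes, and 6 were lower, 12.5% against 16%. In all, 25% of the family and 26.9% of all genes were called. Arrays did not overlap for 7 higher members, 14.6% against 13.8% of all genes, and for 6 lower members, 12.5% against 17.5%. The higher members were Serpina7 at 1.60 (3.03-fold), Serpina10 at 1.25 (2.37-fold), Serpina3n at 0.90 (1.86-fold), Serpinb6b at 0.69 (1.61-fold), Serpina3b at 0.37 (1.3-fold) and Serpina5 at 0.30 (1.23-fold). The lower members were Serpinb6a at -0.52, Serpina1d at -0.43, Serpina9 at -0.41, Serpind1 at -0.28, Serpinf1 at -0.18 and Serpinc1 at -0.15. Adjusted p (limma) ran from 2.17e-08 for Serpina10 to 0.0435 for Serpina5.

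Serpinb6b and Serpina9 were called in this comparison and not in WT livers, but neither differed by the test between the 2 LPS groups. Serpinb6b, a granzyme inhibitor of leukocytes, read 7.15, 6.35, 6.88 and 7.05 in untreated, 7.89, 6.67, 7.14 and 7.29 in WT LPS and 7.28, 7.47, 7.71 and 7.73 in S534A LPS livers. Its WT LPS arrays spanned more than both other groups, and the direct difference between LPS groups was 0.30 with a 95% interval of -0.20 to 0.80. Serpina9, a serpin of germinal centre B cells, read 5.68, 5.80, 5.69 and 6.08 in untreated, 5.11, 5.69, 5.45 and 5.61 in WT LPS and 5.50, 5.41, 5.32 and 5.41 in S534A LPS livers, and its direct difference was -0.06.

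Several of these calls hung on single arrays. Without S534A LPS replicate 4, 3 members in place of 6 were called lower, since Serpina9, Serpinc1 and Serpinf1 were lost (adjusted p = 0.0553, 0.101 and 0.0513). Serpinc1 was also lost without any other S534A LPS array, WT LPS replicate 3 or 4, or untreated replicate 1, 3 or 4, with adjusted p up to 0.11. Serpina9 was also lost without S534A LPS replicate 2 or 3 or untreated replicate 4, with adjusted p up to 0.0709. Serpinb6b was lost without S534A LPS replicate 2, 3 or 4, WT LPS replicate 3 or 4, or untreated replicate 2 or 3, with adjusted p up to 0.12. Serpina5 was lost without S534A LPS replicate 1, 2 or 4, WT LPS replicate 3, or untreated replicate 2, 3 or 4, with adjusted p up to 0.135. Without the 3 arrays with pancreas messages, Serpina5, Serpina9, Serpinb6b, Serpinc1 and Serpinf1 were lost (adjusted p = 0.0681, 0.0646, 0.0504, 0.0846 and 0.0502). Without untreated replicates 2 and 4 the same 5 members were lost, and with them Serpina3b (0.25, adjusted p = 0.0634) and Serpinb6a (-0.43, adjusted p = 0.0939).

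Between S534A LPS and WT LPS livers, the comparison that addresses the p65 site itself, no serpin was called in either direction, under the stated setting or any of the 26 alternatives. The shares called over all genes were 0.166% higher and 0.00502% lower, 0.171% in all, which is far less than 1 gene in 48. At an unadjusted p under 0.05, 1 member was lower and 0 were higher, or 2.08% of the family against 5.76% of all genes. The median difference was 0.00 over members and 0.01 over all genes. For the members with the most certain LPS rise, the genotype difference was 0.01 for Serpina3n, 0.05 for Serpina10 with a 95% interval of -0.10 to 0.19, and -0.03 for Serpina7. The 95% interval lay within 0.5 log2 units of 0 for 42 of the 48 members and within 0.25 for 29. The 6 members with intervals beyond 0.5 were Serpina4-ps1, Serpina12, Serpina7, Serpinb8, Serpinb6b and Serpinb1a. Many of the narrow intervals belonged to dim genes. Of the 19 members with a mean level under 5, all but Serpinb12 and Serpinb3c lay within 0.25. So near the bottom of the array's range, a narrow interval says little about the genotype.

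The 3 members with the smallest p between genotypes were Serpina4-ps1, Serpinb3d and Serpina12. Serpina4-ps1, annotated as a pseudogene of the kallikrein-binding serpin, read 11.38, 9.96, 12.13 and 11.69 in untreated, 11.59, 10.29, 11.34 and 11.58 in WT LPS and 10.04, 11.28, 9.94 and 9.12 in S534A LPS livers. In each group 1 array stood about a log2 unit or more from the rest, low in both WT groups and high in S534A, and the groups overlapped. The difference was -1.11 ± 0.50, a 2.16-fold lower mean in S534A, with a 95% interval of -2.19 to -0.03 that just excluded 0 (limma, adjusted p = 0.839 over all genes). Serpina12, vaspin, a serpin of fat and liver, read 8.58, 7.79, 7.73 and 7.74 in untreated, 7.83, 7.69, 7.81 and 8.21 in WT LPS and 6.67, 7.93, 7.79 and 7.64 in S534A LPS livers. S534A LPS replicate 1 lay alone at the bottom, and the difference was -0.38 ± 0.26 with adjusted p = 1. Without that array the difference was -0.10.

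Serpinb3d, a copy of the squamous cell carcinoma antigen, read 4.43, 4.46, 4.35 and 4.28 in untreated, 4.26, 4.31, 4.28 and 4.26 in WT LPS and 4.39, 4.36, 4.37 and 4.42 in S534A LPS livers. The LPS groups did not overlap, but the difference was 0.10 ± 0.05 (adjusted p = 0.945) at a level near the array's minimum of 3.43. Serpina6 and Serpinb12 were the other members whose S534A arrays all lay above the WT LPS arrays. These 3 were 6.25% of the family, against 3.25% of all genes, and no member lay wholly below, against 1.18%. Serpina6 read 12.81, 12.65, 12.61 and 12.57 in S534A LPS livers, a difference of 0.16 with a 95% interval of -0.08 to 0.39.

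**Figure D3:**
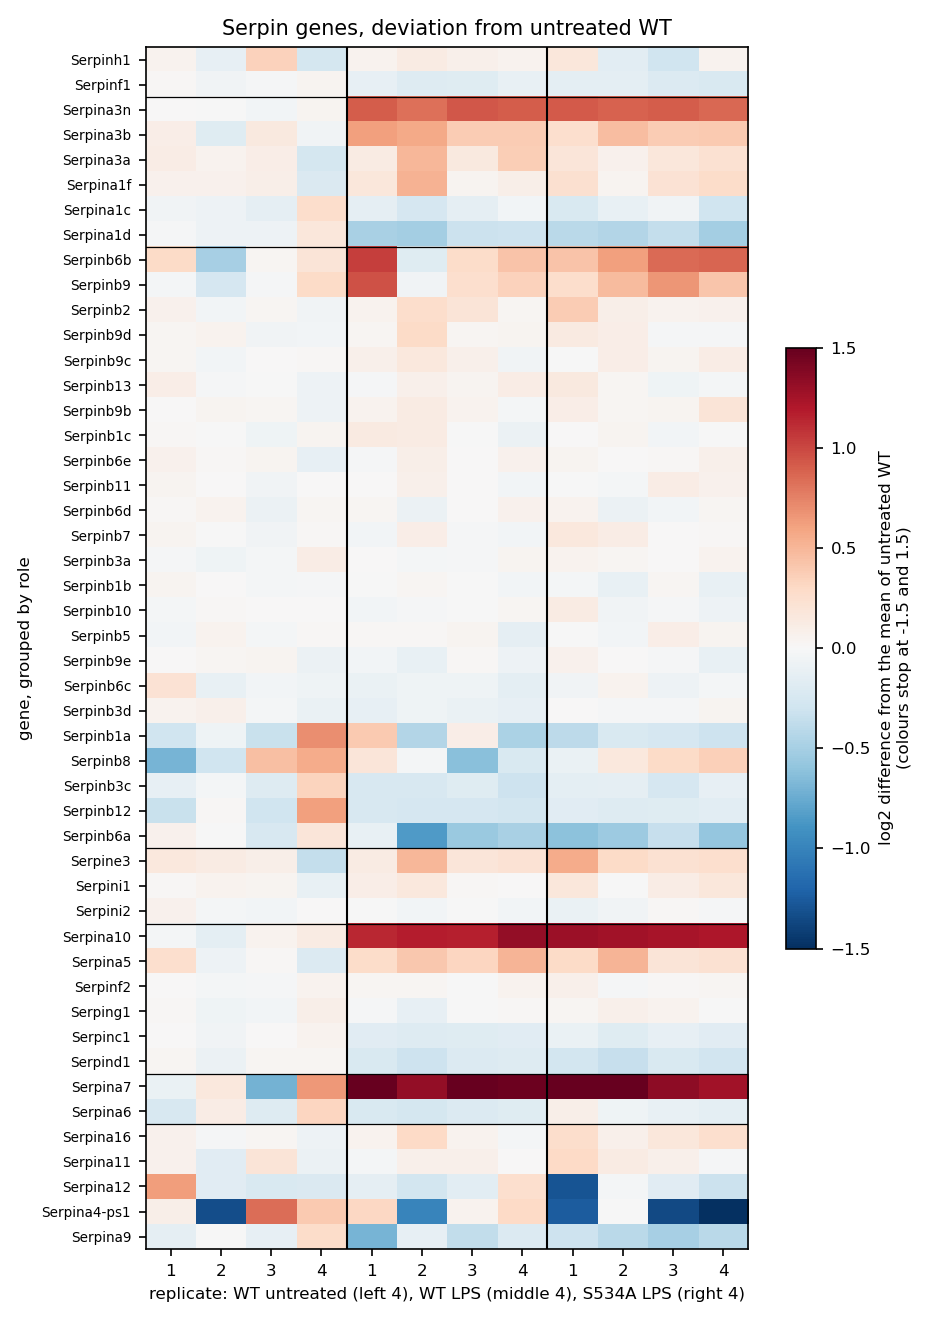
Log2 level of each of the 48 members on each of the 12 arrays, minus the gene's mean in untreated WT livers (red higher, blue lower), with members grouped by role and lines between roles and groups. Serpina7, Serpina10 and Serpina3n are red on all 8 LPS arrays, and most clade B genes show no block by group.

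Members differed widely in how closely replicate arrays matched. The pooled SD within groups had a median of 0.0921 over members against 0.133 over all genes, and 26 members were under 0.1. Yet 6 members exceeded 0.3, 12.5% of the family against 3.80% of all genes. These were Serpina4-ps1 at 0.828, Serpina12 at 0.428, Serpina7 at 0.425, Serpinb8 at 0.417, Serpinb6b at 0.375 and Serpinb1a at 0.373. Serpina4-ps1 ran from 9.12 to 12.13 over the 12 arrays, an 8.04-fold range, and Serpina7 covered 6.70-fold. At the other end of the scale, 9 members had a mean over 12, the plasma inhibitors among them, against 1.86% of all genes. Of the 24 clade B genes, Serpinb1a, an inhibitor of neutrophil elastase, read 6.91, 7.15, 6.88 and 7.92 in untreated livers. It read 7.61, 6.78, 7.32 and 6.75 in WT LPS and 6.82, 6.99, 6.97 and 6.91 in S534A LPS livers. The groups overlapped, and the difference of S534A LPS minus WT LPS, -0.19 ± 0.23, was not called.

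Proteases that plasma serpins restrain were read beside the family in wild-type livers after LPS, where 9.34% of all genes were called higher and 15.6% lower. Of 7 clotting proteases 2 fell, F7 by 0.42 (adjusted p = 0.000696) and Proc, the protein C gene, by 0.24 (adjusted p = 0.00906). Of 7 contact and complement proteases 2 fell, Masp1 by 0.31 (adjusted p = 0.00285) and Masp2 by 0.20 (adjusted p = 0.0145). Of 7 genes in a list of plasminogen activation and related proteases, 1 rose, the urokinase receptor gene Plaur at 0.57 ± 0.09 (adjusted p = 0.00052). From the same list 2 fell, Hgfac at -0.23 (adjusted p = 0.00728) and Hpn at -0.18. Hgfac encodes an activator of hepatocyte growth factor, not of plasminogen. None of 5 neutrophil and mast cell serine proteases was called, though neutrophil markers rose. Among 5 granzyme and perforin genes 2 rose, Gzmb at 0.95 ± 0.14 (adjusted p = 0.000205) and Gzma at 0.47 (adjusted p = 0.000722). Those granzymes are targets of clade B serpins, of which Serpinb9 and Serpinb6b were not called in the same livers.

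Of 7 cathepsin and caspase genes 3 rose, led by Casp4, the sensor caspase for cytoplasmic LPS, at 1.97 ± 0.13 (adjusted p = 2.34e-07), with Casp8 at 0.41 (adjusted p = 0.0302). Of 21 protease inhibitors outside the family, 8 rose and 3 fell. A2m, a broad protease trap, rose by 3.00 ± 0.19 (adjusted p = 1.63e-07), more than any serpin. Timp1, an inhibitor of metalloproteases, rose by 1.65 ± 0.18 (adjusted p = 2.56e-05), close to Serpina7 at 1.63 ± 0.26. Among 8 collagens, the clients of Serpinh1, 2 rose, Col4a1 at 0.50 (adjusted p = 0.00126) and Col4a2 at 0.37 (adjusted p = 0.0107). None of 7 genes of the secretory route of alpha-1 antitrypsin and none of 3 clearance receptors was called. Of 6 hepatocyte transcription regulators 4 rose, with Stat3 at 1.38 ± 0.06 (adjusted p = 2.23e-09) and Cebpd at 0.76 ± 0.11 (adjusted p = 0.0003). Agt, angiotensinogen, a serpin by sequence with another symbol, gave -0.12 and was not called (adjusted p = 0.126). Between the genotypes after LPS, no gene of these lists was called, and of the neutrophil markers Retnlg at 0.68 ± 0.10 (adjusted p = 0.0158) and S100a9 at 0.52 (adjusted p = 0.0385) were higher in S534A.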

How the data were processed

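The deposited log2 values, per the submitters' processing notes, were made by the authors with RMA, a method of background correction, quantile normalisation and summary over probes. The sources used here do not give its version or the genome build. Of 35556 probe sets, 21789 carried 1 gene symbol, 1621 several and 12146 none. For a gene with several probe sets, the one with the highest mean over the 12 arrays was used, with no filter on dim genes. Group differences were fitted on all arrays together by lmFit and eBayes of limma 3.58.1 (R 4.3.3, 9 residual degrees of freedom), with p-values adjusted by Benjamini-Hochberg over 19938 genes. Scripts were tested on simulated data. The members and the gene lists were chosen with earlier results of these data known. Every member called was named. Values on every array are given for Serpina3n, the 6 called members with the largest WT difference and the 3 with the smallest p between genotypes, and for some others chosen after their values were seen. Of the never-called members, the 5 with the highest means are named, with others chosen after their values were seen or flagged as outlying. Of each list apart from cell markers and clock genes, the 2 called genes with the smallest p in wild type are named, and Hpn besides. The labels do not say that arrays of a group are separate animals, so p-values measure only the spread between these samples. Precision is limited by their number. Alternatives were arrays left out, probe set choice, normalisation, a dim filter, array weights, eBayes settings, thresholds, the replicate block and the groups fitted.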

Additional observations from a re-analysis of the deposited data

Results flagged for a closer look

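In 8 of the 144 sets of 4 arrays tested (48 members in 3 groups), 1 array lay far from the other 3, where chance gives about 1 in 20, or 7.2. WT untreated replicate 1 was high for Serpina12, at 8.58 against 7.79 for the nearest array. WT untreated replicate 4 was low for 3 members: Serpina1f at 4.79 (nearest 5.07), Serpina3a at 4.88 (nearest 5.19) and Serpine3 at 5.41 (nearest 5.86). WT untreated replicate 2 was low for Serpind1, at 12.82 against 12.94. After LPS in wild-type livers, replicate 4 was low for Serpinb5, at 4.48 against 4.63, and replicate 2 was high for Serpinb9d, at 4.60 against 4.36. S534A LPS replicate 1 was high for Serpinb2, at 5.12 against 4.83.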

How the results depend on the processing

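No member called changed direction under any of the 26 alternatives that kept it in the test. Leaving out 1 array at a time gave 4 to 6 higher and 4 to 5 lower members in WT LPS against untreated livers, 4 to 9 higher and 3 to 7 lower members in S534A LPS against untreated livers, and 0 between the genotypes. In WT livers, a filter on dim genes gave 3 higher members, since the 2 dimmest risers, Serpina3b and Serpina5, were not among the 11963 genes kept. Lower members there numbered 3 with only the 2 groups fitted, 1 without the 3 arrays with pancreas messages, 2 at an adjusted p under 0.01 and 3 without untreated replicates 2 and 4. In S534A LPS livers, lower members numbered 3 without the pancreas arrays, 2 at an adjusted p under 0.01 and 3 without untreated replicates 2 and 4, which also left 3 higher. The last setting, and that without untreated replicates 1 and 3, were chosen after seeing the data. Apart from the dim filter and the smaller sets of arrays, the cause was not tested.

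With the replicate block, 5 members were higher and 5 lower after LPS in wild type, 5 and 5 after LPS in S534A, and 0 between genotypes. In wild type it lost Serpinf1 and gained Serpina9 among the lower members, and in S534A it lost Serpina5 and Serpinc1. Same-numbered arrays correlated at -0.27 to 0.21 in their deviations, and not every array correlated best with its own number. The labels do not say that a number pairs samples, and these correlations cannot settle whether same-numbered samples share anything else.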
